A study of Mus musculus with 4 samples.

Results

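The genes described here carry dietary fat and sterol through the absorptive cell of the small intestine: they take up and activate fatty acids, rebuild triglyceride, assemble and export chylomicrons, move cholesterol across the brush border and store lipid in droplets. The set held 34 genes chosen by function, with earlier results of these data known. Each was read from the brightest probe set that the array annotation names for that gene alone, a probe set being the group of short probes that together report 1 transcript. Such a probe set was found for 33 of the 34, out of 18193 genes on the array, and all 33 passed the filter on dim probe sets, out of 11326 genes that did. Soat2, which esterifies cholesterol in the enterocyte, had no probe set named for it alone and was not analysed here.

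The study compared epithelial cells isolated from the small intestine of AP-1B-/- mice with those of AP-1B+/- mice, on 4 one-colour Affymetrix arrays, 2 per genotype. AP-1B, found in polarized epithelia, is a clathrin adaptor complex that directs cargo to the basolateral membrane, and Ap1m2 encodes its medium subunit. All animals were healthy adult C57BL/6J mice, 10 weeks of age, raised specific pathogen-free, and the cells were released from whole dissected small intestine with EDTA and freed with a needle under a stereomicroscope. The controls were heterozygous for the disrupted gene, no wild-type array was analysed here, and the labels state neither how the gene was disrupted nor whether the arrays came from different animals. Any p-value therefore measures the spread among these 4 arrays alone, which mixes animals of both sexes within each label, as the sex-linked transcripts show. Signals are multiples of the array median, and sets of 4 values are given in the order heterozygous 1, heterozygous 2, knockout 1, knockout 2 throughout.

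Dietary triglyceride is split in the gut lumen into fatty acids and monoacylglycerol, which enterocytes take up, bind, activate with coenzyme A and join again into triglyceride at the endoplasmic reticulum. There the microsomal transfer protein loads lipid onto apolipoprotein B, and the particle grows, leaves in coat protein II carriers and is released from the basolateral side as a chylomicron for the lymph. Cholesterol enters at the brush border through NPC1L1, and the ABCG5/ABCG8 pump returns plant sterols and surplus cholesterol to the lumen. Lipid that exceeds export waits in cytosolic droplets coated by perilipins.

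The targeted gene did not separate the labelled groups. Ap1m2, with 1 probe set, had signals of 19.9, 4.33, 2.49 and 22.3. The low signals thus came from heterozygous 2 and knockout 1, in each label 1 array. An exchange of labels between arrays was not tested, would alter every knockout minus heterozygous value, and leaves each direction given here a direction by label. The array medians were close to 1, but the 75th percentiles split the arrays in the same pairs, at 4.13 and 4.27 on heterozygous 1 and knockout 2 and at 5.54 and 5.57 on heterozygous 2 and knockout 1. Xist and the Y-linked transcripts split them in another way, by replicate number: Xist was 0.349 and 0.0700 on the arrays numbered 1 and 30.3 and 60.1 on those numbered 2. Eif2s3y, a Y-linked gene, was 12.1 and 24.1 on the arrays numbered 1 and 0.256 and 0.0510 on those numbered 2. Within each label the arrays thus came from different animals, of opposite sex. With 1 array per label and sex, genotype, animal and preparation cannot be told apart.

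The sequence before 5 of the transporter and apolipoprotein genes is given first, because the results turn on their levels. It was taken from RefSeq promoter windows of assembly GRCm38.p6, which covered 29 of the 34 members. Abcg5 and Abcg8 are transcribed away from each other from a gap of 109 bases, shown whole; Npc1l1, Apob and Apoa4 are shown with the 250 bases before the transcript start. Each is written 5′ to 3′, and capitals mark matches to the motifs searched.
Abcg5 to Abcg8, chr17:84683012-84683120, plus strand: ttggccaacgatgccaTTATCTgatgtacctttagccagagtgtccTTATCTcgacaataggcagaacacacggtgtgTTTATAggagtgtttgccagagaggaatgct
Npc1l1 upstream, chr11:6230246-6230495, minus strand: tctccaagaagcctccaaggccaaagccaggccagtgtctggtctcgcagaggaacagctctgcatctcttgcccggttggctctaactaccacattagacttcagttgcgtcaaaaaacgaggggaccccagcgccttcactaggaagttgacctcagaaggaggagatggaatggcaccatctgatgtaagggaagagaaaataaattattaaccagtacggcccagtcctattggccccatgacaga
Apob upstream, chr12:7977427-7977676, plus strand: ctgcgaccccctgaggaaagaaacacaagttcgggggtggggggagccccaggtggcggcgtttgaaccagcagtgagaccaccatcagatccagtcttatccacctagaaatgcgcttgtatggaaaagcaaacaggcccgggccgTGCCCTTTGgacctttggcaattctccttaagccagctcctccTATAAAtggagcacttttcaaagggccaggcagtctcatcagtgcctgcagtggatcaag
Apoa4 upstream, chr9:46240594-46240843, plus strand: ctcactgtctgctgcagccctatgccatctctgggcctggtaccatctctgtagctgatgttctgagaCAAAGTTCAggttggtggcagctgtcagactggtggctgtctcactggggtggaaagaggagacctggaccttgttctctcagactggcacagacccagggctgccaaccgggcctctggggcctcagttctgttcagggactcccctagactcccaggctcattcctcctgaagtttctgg
The gap between Abcg5 and Abcg8 held 2 matches to the GATA motif AGATAA, read on the plus strand as its reverse complement, and 1 match to the TATA box motif TATAAA, also on the other strand. The Apoa4 and Apob stretches each held 1 match to CAAAGNNCA, a core of the motif bound by HNF4, the nuclear receptor that maintains enterocyte identity, and Apob also held a TATA box. Npc1l1 held none of the motifs searched in these 250 bases.

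Over all 35 windows of the members, each 300 bases long and searched on both strands, CAAAGNNCA was present in 5 (14.3%), against 6.36% of the 32851 windows in the table. AGATAA was present in 4 (11.4%), against 11.2%, and TATAAA in 6 (17.1%), against 13.6%. TCACNCCAC, a form of the sterol regulatory element, was present in 0, against 1.24%. The windows of Abcg5 and Abcg8 overlap, so a match in their gap can count for both genes. A match describes letters in a window and is neither a binding site nor a cause of the levels that follow.

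The fat absorption genes were among the brightest transcripts of these cells. Averaged over the 4 arrays, 20 of the 33 had a signal of at least 100 times the array median, and 8 lay within the brightest 1% of the probe sets tested. On each array the highest value of any member belonged to Apoa1 or Fabp1: 782 for Apoa1, 770 for Fabp1, 910 for Fabp1 and 633 for Apoa1. A probe set's signal depends on its own probes, so these levels describe how far each gene stood above its array's median and do not rank transcripts by abundance.

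**Figure D1:**
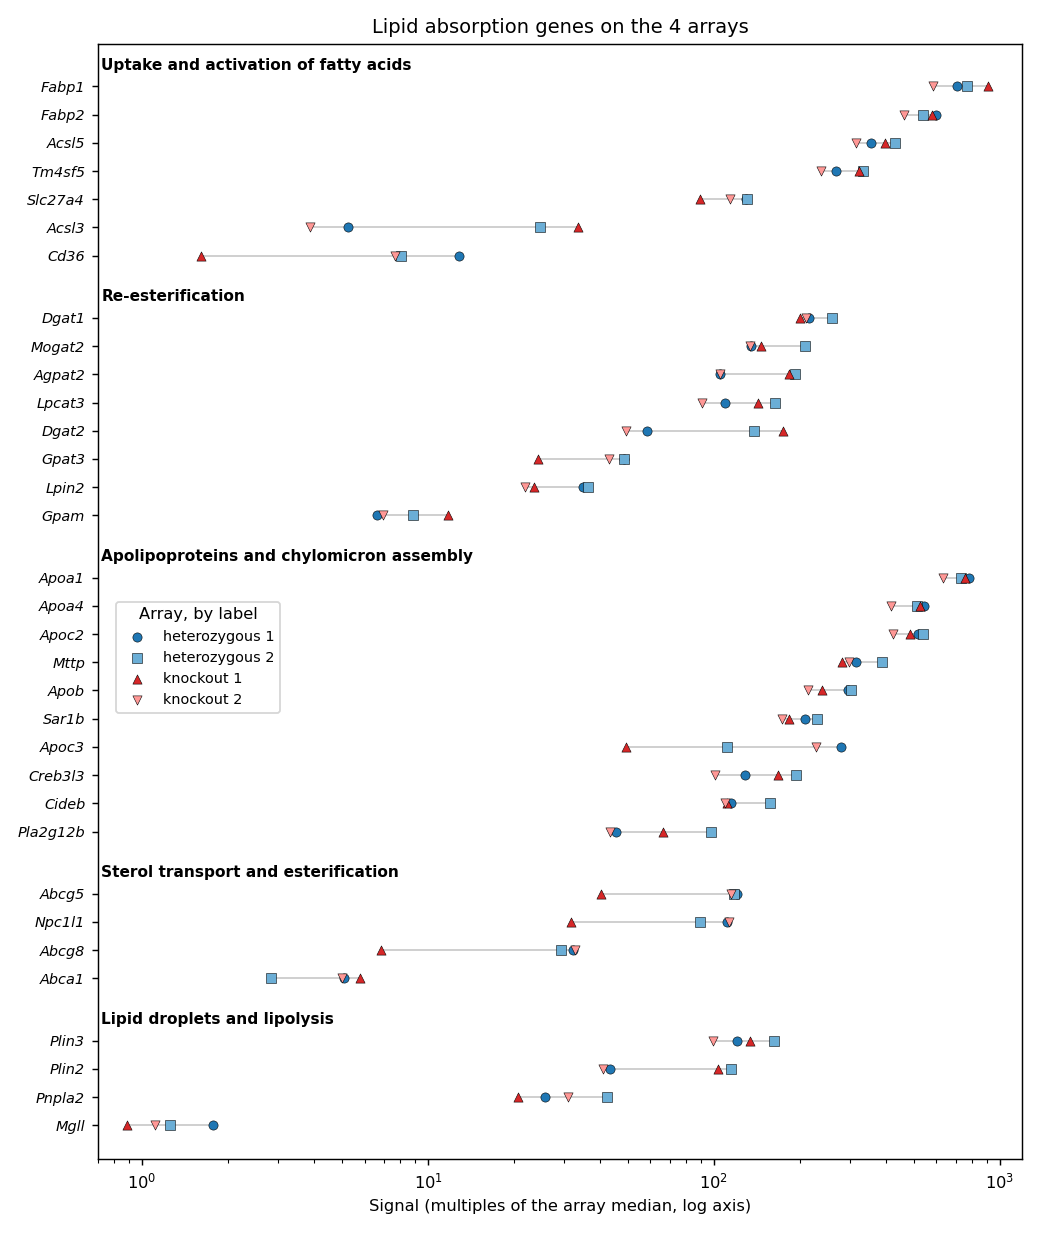
Signal of each of the 33 measured members on the 4 arrays, in multiples of the array median on a log axis, grouped by role and ordered within a role by mean signal; the grey line joins the lowest and highest array. The apolipoproteins and fatty acid binding proteins sit together at the right, from 416 to 910 for Fabp1, Fabp2, Apoa1, Apoa4 and Apoc2. Cd36, Npc1l1, Abcg5 and Abcg8 each have a knockout 1 value well to the left of the other 3 arrays. Apoc3 is also lowest on knockout 1, but its other 3 values do not lie close together.

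No member passed the test between the labelled groups. In limma with Benjamini-Hochberg adjustment over the 22519 probe sets tested, 0 of 33 members had an adjusted p under 0.05 (0% of all probe sets did), and the adjusted p was 0.999868 for each. Before adjustment 1 member, Cd36, was under 0.05, as were 0.755% of all probe sets tested. The smallest p that an exact permutation test can give with 2 arrays a group is 0.333. The differences given for single members are therefore values and not calls.

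The members leaned to lower values on the arrays labelled knockout. The log2 difference, knockout minus heterozygous, was below 0 for 29 of the 33 members, against 49.3% of all probe sets tested, and its median was −0.27 against 0.01. All values of the knockout arrays lay below all values of the heterozygous arrays for 12 members, against 10.7% of all probe sets, and above them for 0, against 6.56%. As each array was left out in turn, the members' median ran from −0.47, without heterozygous 1, to −0.07, without heterozygous 2, beside medians of −0.20 and 0.20 for all probe sets. The 12 were Cd36, Slc27a4, Dgat1, Gpat3, Lpin2, Apob, Mttp, Apoc2, Sar1b, Cideb, Abcg5 and Mgll. In cells isolated in bulk, fewer enterocytes in the preparation and less RNA per enterocyte cannot be told apart.

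**Figure D2:**
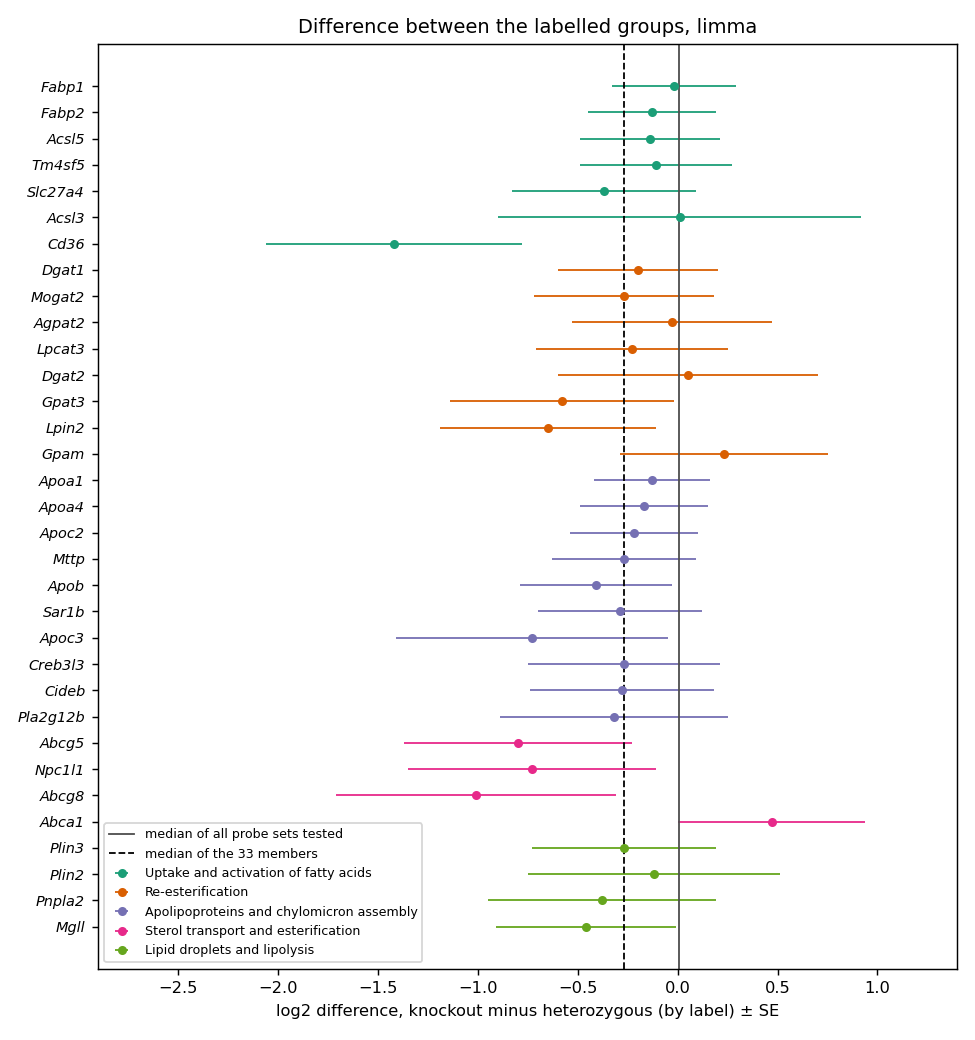
Log2 difference between the labelled groups for each member, knockout minus heterozygous, with bars of 1 standard error from limma (2 arrays per group). The points of 29 members lie left of 0. The dashed line marks the median of all 33 members, −0.27, and the solid line the median of all probe sets tested. No member passed the adjusted threshold.

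Uptake and activation of fatty acids came first in the pathway. Of 7 members, 6 had negative differences, with a median of −0.13. Fabp1 and Fabp2, the liver-type and intestinal fatty acid binding proteins that carry fatty acids through the cytosol, were bright on every array. Fabp1 had 707, 770, 910 and 582, a log2 difference of −0.02 ± 0.31 (SE). Fabp2 had 596, 538, 578 and 461, a difference of −0.13 ± 0.32. For both, the group ranges overlapped and knockout 2 was the lowest array.

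Cd36, the scavenger receptor that takes up long-chain fatty acids, was far dimmer and showed the largest difference of any member. Its signals were 12.8, 8.05, 1.60 and 7.67, with means of 10.4 ± 3.36 (SD, n = 2) by the heterozygous label and 4.63 ± 4.29 (SD, n = 2) by the knockout label. The log2 difference was −1.42 ± 0.64 (SE), with an adjusted limma p of 0.999868. Knockout 2 lay just under heterozygous 2, and most of the difference came from knockout 1. All 3 Cd36 probe sets had their lowest value on that array and their highest on heterozygous 1. Without knockout 1 the log2 difference was −0.39, and without knockout 2 it was −2.45. Quantile normalization gives all arrays the same distribution of signals. After it the difference without knockout 2 was −2.53. Each of these fits left 1 array under the knockout label. On that scale knockout 2, at 9.14, lay above heterozygous 2, at 6.93, so the groups overlapped.

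The enzymes that activate fatty acids split by array. Acsl5, the main acyl-CoA synthetase of the enterocyte, had 354, 430, 396 and 315, and Slc27a4, the transport protein FATP4 with acyl-CoA synthetase activity, had 129, 131, 89.5 and 114. Acsl3, a synthetase of the endoplasmic reticulum and nascent lipid droplets, had 5.25, 24.7, 33.5 and 3.87. It was high on heterozygous 2 and knockout 1, the arrays with low Ap1m2 signals, and low on the other pair, in all 3 of its probe sets. Its log2 difference of 0.01 ± 0.91 turned negative after quantile normalization and under 75th percentile scaling. Tm4sf5, a tetraspanin-like membrane protein, had 267, 331, 321 and 236.

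Re-esterification was represented by 8 enzymes, 6 of them with negative differences and a median of −0.22. In the monoacylglycerol route, which makes most of the enterocyte's triglyceride after a meal, Mogat2 had 135, 209, 146 and 133, and its group ranges overlapped. Dgat1, which adds the last fatty acid, had 215, 259, 200 and 211. Its knockout values lay under both heterozygous values by a small margin, and a second, dimmer Dgat1 probe set did not share the order, with 15.1, 6.49, 7.06 and 14.1. Dgat2, the unrelated enzyme that performs the same reaction and works close to droplets, had 58.4, 138, 174 and 49.5. Dgat2 thus followed the array pairs of Acsl3, high where Ap1m2 was low, and not the labels. Its log2 difference was 0.05 ± 0.65, and its second probe set had the same lowest and highest arrays.

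The glycerol phosphate route varied more from enzyme to enzyme. Gpat3, which starts the route at the endoplasmic reticulum, had 48.3, 48.6, 24.4 and 43.0, a difference of −0.58 ± 0.56. Gpam, the mitochondrial enzyme of the same step, had 6.63, 8.85, 11.7 and 6.98, and its difference of 0.23 ± 0.52 was negative, at −0.33, when its probe sets were averaged. The low value of Gpat3 belonged to knockout 1, the array on which Gpam was highest.

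Lpin2, a phosphatidate phosphatase that makes diacylglycerol, separated the labels most cleanly within this route. Its signals were 35.0, 36.2, 23.4 and 21.8, with means of 35.6 ± 0.870 (SD, n = 2) and 22.6 ± 1.12 (SD, n = 2). The log2 difference was −0.65 ± 0.54 (SE), with an adjusted limma p of 0.999868. All 4 Lpin2 probe sets gave negative differences, from −0.55 to −0.90. After quantile normalization its values were 43.5, 29.8, 20.1 and 26.8, and the groups still did not overlap, though the distance between heterozygous 2 and knockout 2 was smaller than that between the heterozygous arrays. Agpat2, which acylates lysophosphatidic acid, had 105, 192, 184 and 105, and Lpcat3, which remodels phosphatidylcholine for the particle surface, had 109, 163, 142 and 90.7.

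All 10 genes of apolipoproteins and chylomicron assembly had negative differences, with a median of −0.28. Apob, whose intestinal form is the structural protein of the chylomicron, had 295, 302, 239 and 213. Its means were 299 ± 4.85 (SD, n = 2) and 226 ± 18.7 (SD, n = 2), a log2 difference of −0.41 ± 0.38 (SE), with an adjusted limma p of 0.999868. Both knockout arrays were lower than both heterozygous arrays on the deposited scale and after quantile normalization, where the values were 328, 287, 211 and 254. A second, much dimmer Apob probe set did not share this order, with 12.5, 13.7, 15.9 and 7.93. Leaving out either knockout array kept the sign, at −0.49 without knockout 1 and −0.32 without knockout 2.

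Mttp, the transfer protein that lipidates apolipoprotein B, had 313, 386, 280 and 297, a log2 difference of −0.27 ± 0.36. Sar1b, the small GTPase that starts the coat protein II carrier of the chylomicron, had 208, 230, 183 and 174, a difference of −0.29 ± 0.41. Cideb, a protein that helps lipidate the particle, had 115, 157, 111 and 109, a difference of −0.28 ± 0.46. For these 3 genes the knockout arrays were the lower pair, but for Cideb the distance to heterozygous 1 was small. A second Mttp probe set, nearly as bright, had 252, 336, 272 and 227, and there the groups overlapped. After quantile normalization Sar1b had 230, 206, 163 and 203, and Cideb had 133, 135, 96.3 and 131. The groups of both still did not overlap, but knockout 2 lay just under the lower heterozygous array. Those of Mttp overlapped.

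The exchangeable apolipoproteins were nearly level across the arrays, with 1 exception. Apoa1, the main protein of high density lipoprotein, had 782, 733, 758 and 633, and Apoa4, which is made in proportion to fat absorbed, had 543, 512, 525 and 416. The 3 other Apoa1 probe sets and the second of Apoa4 were highest on knockout 1. Apoc2, the cofactor of lipoprotein lipase, had 518, 539, 485 and 424. Apoc3, which slows lipolysis and clearance of the particles, had 278, 111, 49.2 and 227, a log2 difference of −0.73 ± 0.68. The highest array exceeded the lowest 5.66-fold for Apoc3 and by 1.23-fold and 1.30-fold for Apoa1 and Apoa4, its neighbours on either side in the gene order of chromosome 9. Apoc3 was low on the arrays with low Ap1m2 signals and high on the other pair. After quantile normalization it kept that split, with 311, 93.9, 42.0 and 270. The sign of Apoc3 rested on knockout 1, and without that array its log2 difference was 0.37.

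The remaining assembly genes differed less between labels than within them. Pla2g12b, a catalytically inactive phospholipase relative needed for lipid-rich particles, had 45.4, 97.9, 66.3 and 43.2. Creb3l3, a transcription factor of the endoplasmic reticulum that drives apolipoprotein genes, had 128, 194, 168 and 101. Both were highest on heterozygous 2 and lowest on knockout 2, with overlapping groups.

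The sterol transporters had the most negative median of the roles, −0.77 over 4 genes, and every sterol gene spanned at least 2-fold between its lowest and highest array. Npc1l1, the brush border cholesterol importer, had 111, 89.7, 31.7 and 113. Abcg5 and Abcg8, which form 1 sterol export pump, had 120, 117, 40.2 and 114 for Abcg5 and 32.3, 29.1, 6.84 and 32.6 for Abcg8. The 3 genes shared a shape: 3 arrays close together and knockout 1 far below them. The highest array exceeded the lowest 2.99-fold for Abcg5 and 4.77-fold for Abcg8, the divergent pair whose shared gap is printed above.

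The group means hid that shape. Abcg5 averaged 119 ± 2.14 (SD, n = 2) by the heterozygous label and 77.3 ± 52.5 (SD, n = 2) by the knockout label, a log2 difference of −0.80 ± 0.57 (SE). The differences were −1.01 ± 0.70 for Abcg8 and −0.73 ± 0.62 for Npc1l1. Without knockout 1 they were −0.05 for Abcg5, 0.09 for Abcg8 and 0.18 for Npc1l1, so the direction of the last pair of genes rested on that array. Each of the 3 genes had 1 probe set.

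Abca1, which exports cholesterol to apolipoprotein A-I on the basolateral side, ran the other way, with 5.07, 2.82, 5.81 and 5.02 and a log2 difference of 0.47 ± 0.47. Here heterozygous 2 was the array that stood apart. Knockout 2 lay just under heterozygous 1, so the groups overlapped.

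**Figure D3:**
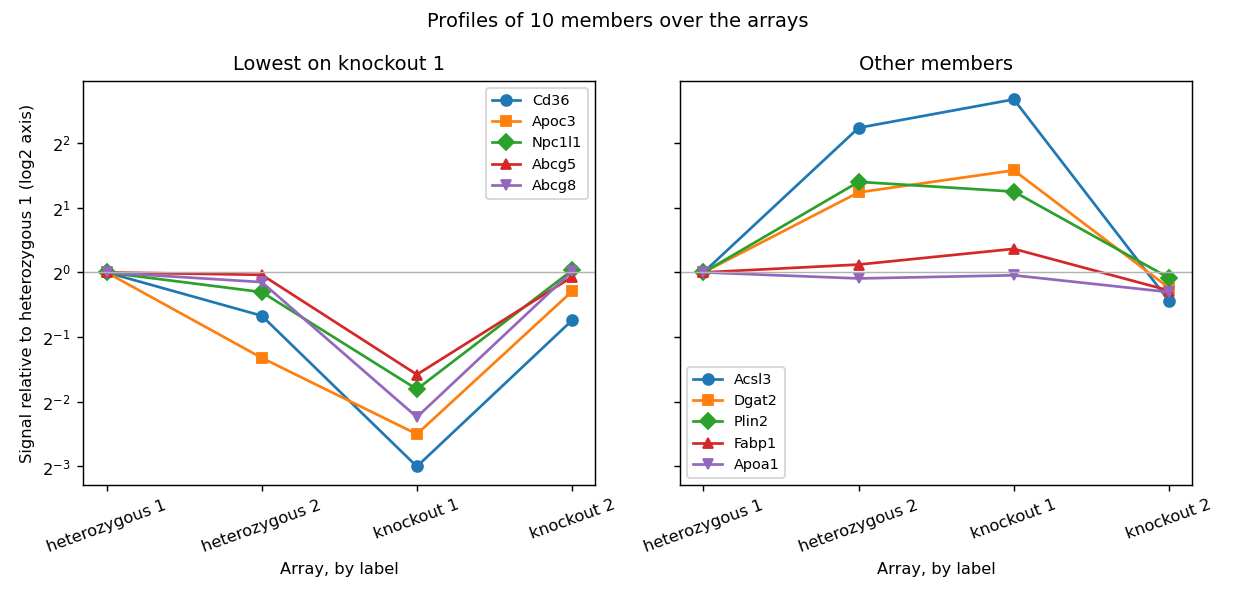
Signal of 10 members on each array divided by that member's signal on heterozygous 1, on a log2 axis; lines only join the points of 1 gene, and the members were picked for display after their values were seen. On the left Cd36, Apoc3, Npc1l1, Abcg5 and Abcg8 have their lowest point at knockout 1; on the right Acsl3, Dgat2 and Plin2 are high on heterozygous 2 and knockout 1 while Fabp1 and Apoa1 stay near the line of no difference.

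Droplet coats and lipases had negative differences in 4 of 4 genes, with a median of −0.33. Plin2, the coat protein that marks stored lipid, had 43.4, 114, 103 and 40.9, the same array pairs as Acsl3 and Dgat2, and a log2 difference of −0.12 ± 0.63. Plin3, which coats nascent droplets, had 120, 162, 134 and 99.3. Plin2 was thus more than 2-fold higher on heterozygous 2 and knockout 1, where Ap1m2 was low, than on the other arrays. The order of Plin3 ran from knockout 2 to heterozygous 2. Pnpla2, the triglyceride lipase ATGL, had 25.8, 42.2, 20.7 and 30.8. Mgll, the monoacylglycerol lipase, was the dimmest member, with 1.77, 1.25, 0.883 and 1.11, near the array median. Its knockout values were the lower pair on both scales, at a level where the pseudocount of 0.321 shrinks the log2 difference, which was −0.46 ± 0.45. A second Mgll probe set had 1.93, 0.692, 0.725 and 0.835, with overlapping groups.

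Array by array, the lowest value lay on knockout 2 for 20 members, against 30.8% of all probe sets tested, and on knockout 1 for 11, against 21.1%. The highest lay on heterozygous 2 for 19, against 35.3%. Knockout 1 was at least 2-fold below heterozygous 1 for 6 members, Cd36, Apoc3, Npc1l1, Abcg5, Abcg8 and Mgll, against 8.08% of all probe sets, and at least 2-fold above it for 3, Acsl3, Dgat2 and Plin2, against 21.6%. A range of 2-fold or more between the lowest and highest array was seen for 12 members (36.4%), against 45.9% of all probe sets.

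Bright probe sets varied less on these arrays, and the members were bright. The median ratio of highest to lowest array was 1.77 for the members, 1.93 over all probe sets tested and 1.57 over the 226 brightest. The 8 members among those 226 were Fabp1, Fabp2, Acsl5, Tm4sf5, Mttp, Apoa1, Apoa4 and Apoc2. Their ratios ran from 1.23 to 1.56, and all 8 had negative differences, where 43.8% of the 226 did. Over the 2402 probe sets with a mean signal of at least 41.1, the lower quartile of the members, 53.4% had negative differences. Their median difference was −0.02, and the knockout arrays were lower without overlap for 12.4%. The median ratio of these 2402 was 1.79, and 35.2% had a range of 2-fold or more, near the 1.77 and 36.4% of the members.

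The 75th percentiles allow a comparison within pairs of arrays with a like spread of signals, a pairing chosen after these percentiles were seen. Knockout 2 lay below heterozygous 1 for 29 of 33 members, against 47.0% of all probe sets, with a median log2 ratio of −0.18 against 0.03. Knockout 1 lay below heterozygous 2 for 25, against 50.6%, with a median of −0.33 against −0.01. The members therefore leaned lower on the knockout label in both pairs. Ap1m2 was also alike within each pair, at 19.9 and 22.3 and at 4.33 and 2.49. Neither pair thus sets a high against a low Ap1m2 signal. By the sex-linked transcripts each of these pairs joins arrays of opposite sex, so label and sex cannot be told apart within them. Arrays of the same replicate number share a sex. By replicate number, the median for knockout 1 over heterozygous 1 was −0.04, against 0.36 for all probe sets. For knockout 2 over heterozygous 2 it was −0.40, against −0.37, so the second of these differed little from the background.

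**Figure D4:**
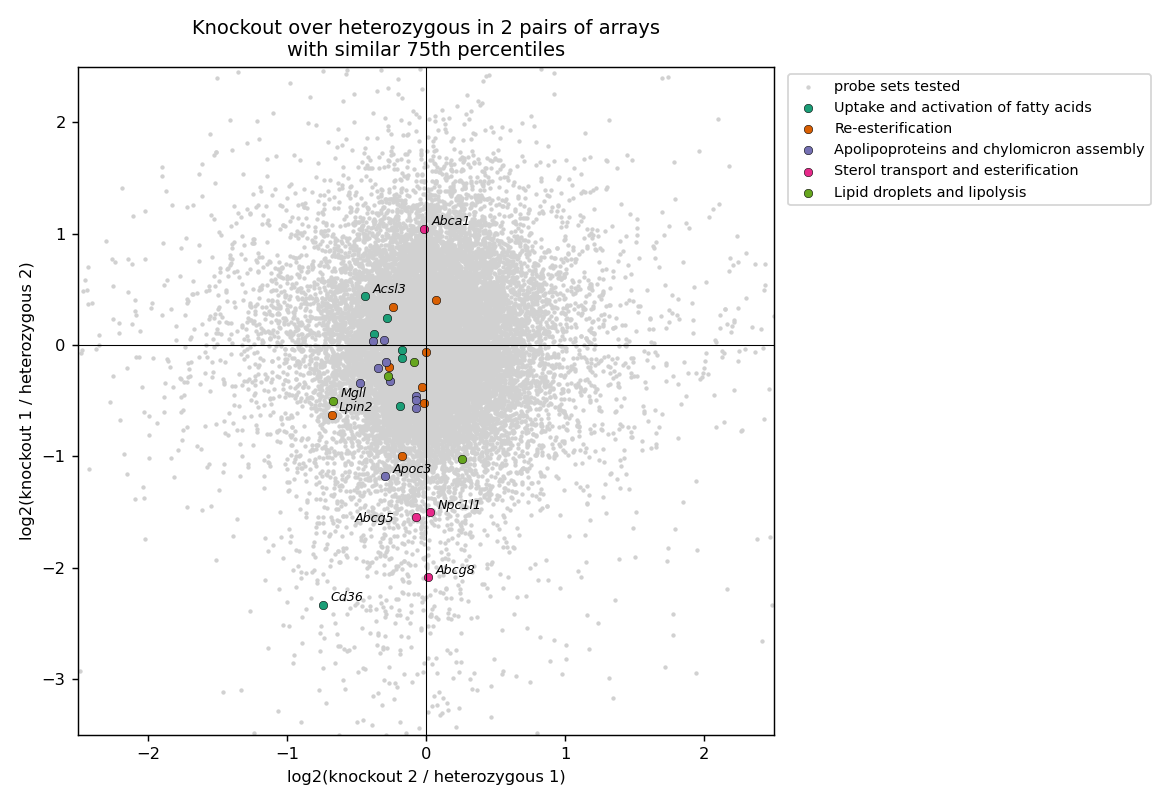
Log2 ratio of knockout 2 to heterozygous 1 (horizontal) against knockout 1 to heterozygous 2 (vertical), the array pairs with similar 75th percentiles. Both pairs join arrays of opposite sex and of like Ap1m2 signal. Each grey point is a probe set tested and each coloured point a member. The lower left quadrant holds most members, Cd36 and Abcg8 lie farthest down, and 256 of 22519 probe sets lie outside the axes.

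Quantile normalization changed which array was lowest more than it changed the direction. After it, knockout 1 was the lowest array for 23 members, against 32.7% of all probe sets, and the median log2 difference was −0.25. Without knockout 1 that median was −0.096, so much of the lean on this scale rested on that array. The knockout arrays were the lower pair without overlap for 11 members, against 11.0%: Fabp2, Acsl5, Tm4sf5, Lpin2, Lpcat3, Apob, Apoa4, Sar1b, Cideb, Plin3 and Mgll. Lpin2, Apob, Sar1b, Cideb and Mgll stood in this list and in that of the deposited scale. For Sar1b and Cideb the margin after normalization was small. Gpam was the 1 member above without overlap, against 11.7% of all probe sets.

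Other genes of the same pathways also had mostly negative differences. These lists, like the members, were chosen with earlier results of these data known, so they are not an independent check. Of 66 listed, 62 were measured and 59 tested; 40 had negative differences, against 49.3% of all probe sets tested, the median was −0.17 against 0.01, and 0 passed the adjusted limma threshold. The knockout arrays were the lower pair without overlap for 12 of them, against 10.7% of all probe sets, and the higher pair for 1, against 6.56%. In uptake and activation 4 of 5 were negative. Dbi, the acyl-CoA binding protein, had 353, 463, 440 and 338. Slc27a2, a very long-chain acyl-CoA synthetase, had 70.2, 75.9, 14.9 and 59.0. Slc27a2 was lowest on knockout 1, as Cd36, Npc1l1, Abcg5 and Abcg8 were.

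In glycerolipid synthesis 7 of 9 tested genes were negative, with a median of −0.34. The brightest were Cept1, which makes choline and ethanolamine phospholipids, with 54.2, 79.5, 65.9 and 47.5, and Pcyt1a, the rate-setting enzyme of phosphatidylcholine synthesis, with 40.7, 70.2, 38.9 and 45.5. Among apolipoproteins and the secretory route 17 of 20 were negative, with a median of −0.25. P4hb, the protein disulfide isomerase that is the small subunit of the transfer protein complex, had 409, 456, 445 and 346. Sec23a, a coat protein II subunit, had 114, 139, 110 and 96.4, with both knockout arrays lower.

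Among droplet proteins and lipases 4 of 6 tested genes were negative, with a median of −0.09. Lipa, the lysosomal acid lipase, had 55.7, 88.8, 69.9 and 41.4, and Cidec, a droplet fusion protein, had 17.7, 31.3, 33.0 and 14.9. Of 4 other sterol genes 3 were negative. Npc2, which moves cholesterol out of lysosomes with NPC1, had 40.2, 97.3, 97.6 and 41.9, and Stard3, a sterol transfer protein of late endosomes, had 13.7, 18.6, 14.9 and 12.2. Cidec and Npc2 followed the array pairs of Plin2 and not the low knockout 1 value of the brush border transporters.

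Of 15 transcription factors of the pathway tested, 5 had negative differences, against 49.3% of all probe sets, and the median was 0.07 against 0.01. The knockout arrays were the lower pair without overlap for 2 of them, named after their values were seen: Hnf4g, a relative of Hnf4a, with 32.5, 36.9, 18.4 and 30.5, and Nr1h3, the sterol-sensing receptor LXR alpha, with 6.29, 6.97, 3.89 and 5.55. They were the higher pair for 0. Hnf4a had 154, 214, 249 and 147, and Gata6, a GATA factor of the intestinal epithelium, had 57.9, 67.8, 58.0 and 55.5. Hnf4a was highest on knockout 1, the array with the lowest Npc1l1 and Apoc3.

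Markers of cell types were compared on the same arrays, and none of their genes passed the adjusted limma threshold. The 12 epithelial markers, led by Alpi and Krt8, summed to between 2940 and 3626 on the heterozygous arrays and between 2637 and 4166 on the knockout arrays. This was the largest sum of any list on each array, though a sum depends on which genes were listed. Of the 12, 4 had negative differences, against 49.3% of all probe sets, and the median was 0.05 against 0.01. Hepatocyte markers, which bear on the apolipoproteins, summed to 16.9, 20.5, 28.0 and 9.81, almost all of it Ttr and Apoh, with Alb, Ahsg, Fgb and Cyp2e1 below the filter. Adipocyte markers, which bear on Cd36 and Plin2, summed to 3.26, 2.62, 2.27 and 3.25 over 5 measured genes, led by Lpl and Car3, with Adipoq, Lep and Retn below the filter. Endothelial markers, led by Lyve1 and Kdr, summed to between 4.24 and 6.22, and stromal and muscle markers, led by Acta2 and Col3a1, to between 20.3 and 29.7. Within the last list 3 of 8 tested genes were higher on both knockout arrays without overlap, against 6.56% of all probe sets. These were smooth muscle genes: Acta2 had 5.91, 6.39, 9.66 and 10.1, Actg2 had 0.952, 0.971, 1.92 and 2.58, and Myh11 had 0.596, 0.602, 1.45 and 1.57. Actg2 and Myh11 lay near the filter bound of 0.983. The other 5 tested genes of the list had negative differences. Des, a muscle gene below the filter, had 0.641, 0.389, 0.460 and 2.34, with overlapping groups. The part of these lists in the lower values of the members was not tested.

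Several marker lists also had their highest or lowest sum on knockout 1. T cell markers, led by Gzma and Ccl5, summed to 468, 94.3, 13.2 and 288, and all 9 tested had negative differences. Proliferation markers, led by Pcna and Top2a, summed to 152, 241, 454 and 156, and all 10 tested had positive differences. The proximal small intestine list, led by Ada and Slc40a1, summed to 1386, 1355, 1138 and 1168, and its genes did not share an order. Lct, the lactase of proximal villi, had 312, 82.3, 3.97 and 237. Cybrd1, a duodenal ferric reductase, had 35.0, 196, 150 and 35.5, and Ada was highest on knockout 1, with 568, 568, 634 and 407. The distal list, led by Clec2h and Slc51a, summed to 259, 306, 149 and 254, with Slc10a2 and Fabp6 below the filter. Their part in the low knockout 1 values of Cd36, Npc1l1, Abcg5, Abcg8 and Apoc3 was not tested.

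The remaining lists differed in which array had the highest or lowest sum. Myeloid markers, led by Lyz2 and Csf1r, summed to 99.6, 38.2, 36.1 and 47.2, and B and plasma cell markers, led by Igha and Jchain, to 626, 245, 275 and 247. Paneth cell markers, led by Lyz1 and Itln1, summed to 674, 319, 488 and 205, goblet cell markers, led by Zg16 and Tff3, to 1968, 2055, 2083 and 1576, and enteroendocrine markers, led by Chgb and Gip, to 240, 242, 160 and 188. Pancreatic acinar markers, led by Cela1 and Clps, summed to 39.8, 44.6, 40.9 and 101. On the deposited scale the enteroendocrine sum was lower on both knockout arrays. Of its 8 genes, 4 were lower there without overlap, against 10.7% of all probe sets, and 1 had a positive difference. After quantile normalization the groups of Chgb still did not overlap, while those of Gip did, at 85.4, 47.0, 26.9 and 82.3. The part of this list in the values of Lpin2, Apob and Sar1b was not tested.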

How the data were processed

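The deposited table gives an intensity for every probe set on every array, not log-transformed, made with MAS5 per the submitters' processing notes; its version is not given in the sources used here. Array medians lie near 1, a rescaling seen in the values and stated in no label. The platform annotation tied 34945 probe sets to 1 gene, 932 to several and 9160 to none; genes were read only from the first kind. Scanner files and detection calls were not used here. The small number of arrays limits precision.

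Values were transformed as log2(intensity + 0.321), the pseudocount being the 25th percentile of all values, so folds of dim probe sets are understated. Of 45037 probe sets, the 22519 whose mean reached the median of such means (0.983) were tested. The labelled groups were compared in R 4.3.3 with limma 3.58.1 (linear model, moderated with an intensity trend), p-values were adjusted by Benjamini-Hochberg over all 22519, and the threshold was 0.05. The fit was tested on simulated data. All members were described, along with every Ap1m2 probe set, any pathway gene past the threshold and the 2 brightest genes of each pathway and marker list; Lct, Cybrd1, Actg2, Myh11, Hnf4g, Nr1h3, the sex-linked genes and markers below the filter were named after their values were seen. Members and lists were chosen with earlier results of these data known. Alternatives were another pseudocount, no filter, quantile and 75th percentile scaling, no trend, a replicate block, averaging the probe sets of a gene, and each array left out; a crossed block and each array left out after quantile normalization were added after the data were seen. Same-numbered arrays deviated from their group means in opposite directions (correlation −0.51), so replicate numbers were not taken as pairs.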

Additional observations from a re-analysis of the deposited data

How the results depend on the processing

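The count of members past the adjusted limma threshold was 0 under every setting run except 1, and the members' median log2 difference stayed negative under all of them. It was −0.25 after quantile normalization and −0.30 under 75th percentile scaling. As each array was left out, it ran from −0.47 (without heterozygous 1) to −0.07 (without heterozygous 2). After quantile normalization it ran from −0.40 (without knockout 2) to −0.096 (without knockout 1). In that last fit 21 members were negative and 12 positive, where 30 were negative with all arrays. Over all probe sets, 24 passed without knockout 1 and 240 without knockout 2, with a lone array assumed to vary like the other group; members past the threshold then ranged from 0 to 1, the 1 being Cd36 without knockout 2. With the replicate number as a block, 0 probe sets and 0 members passed and the members' median was −0.27; the crossed pairing also gave 0 and 0. Acsl3 turned negative after quantile normalization (−0.0065), under 75th percentile scaling (−0.017) and with its probe sets averaged (−0.062), and Gpam with its probe sets averaged (−0.33). With 2 arrays per label, a depth limit cannot be given, and dim members such as Mgll lie where the pseudocount shrinks differences.

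As each array was left out, the log2 difference changed sign for these members and ran, for Fabp1 from −0.34 to 0.30, Fabp2 from −0.30 to 0.029, Acsl3 from −1.49 to 1.52, Acsl5 from −0.31 to 0.021, Tm4sf5 from −0.33 to 0.11, Mogat2 from −0.58 to 0.047, Dgat2 from −0.85 to 0.96, Gpam from −0.13 to 0.59, Agpat2 from −0.47 to 0.40, Lpcat3 from −0.55 to 0.095, Apoa1 from −0.26 to 0.0020, Apoc3 from −1.83 to 0.37, Pla2g12b from −0.87 to 0.24, Creb3l3 from −0.64 to 0.092, Npc1l1 from −1.64 to 0.18, Abcg8 from −2.11 to 0.090 and Plin2 from −0.81 to 0.58.

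After quantile normalization, leaving out heterozygous 1 gave these members the opposite sign to the deposited scale: Acsl3 (−0.82), Dgat2 (−0.28), Apoa1 (0.050) and Apoc3 (0.18). Leaving out heterozygous 2 turned Fabp1 (0.050), Agpat2 (0.24), Abca1 (−0.16) and Plin2 (0.32). Leaving out knockout 1 turned Slc27a4 (0.062), Acsl3 (−1.31), Dgat1 (0.068), Dgat2 (−0.59), Gpat3 (0.11), Mttp (0.0045), Apoa1 (0.074), Apoc3 (0.66), Npc1l1 (0.47), Abcg5 (0.21), Abcg8 (0.37) and Pnpla2 (0.18). Leaving out knockout 2 turned Fabp1 (0.074), Agpat2 (0.19) and Plin2 (0.31).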
